A study of Mus musculus with 4 samples.

Results

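The genes described here encode the subunits of the respiratory chain and ATP synthase that are carried in the nucleus, together with factors whose symbols share the same prefixes. They were the rows of a table of raw counts whose symbols begin with Nduf, Uqcr, Cox4 to Cox8 or Atp5, or are Sdha, Sdhb, Sdhc or Sdhd, without pseudogene and Rik symbols. Of 24061 gene rows, 92 matched, and 83 had a sum of at least 40 counts over the 4 libraries. All 83 passed the filter on low counts that left 13022 genes to be tested. The lowest of the 83 (Ndufaf2) had 439 counts in all and the highest of the 9 others (Cox7a1) had 29, so the minimum fell in a wide gap.

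Peyer's patches, lymphoid follicles of the small intestine, were the source of the cells, which were sorted by flow cytometry as CD4+FoxP3+CD62L-, a phenotype of effector regulatory T cells, at about 40000 per library. All mice were C57BL/6 at backcross generation N5, were 13 weeks old, carried FoxP3-YFP-cre, and were kept free of specific pathogens, Helicobacter hepaticus included. By label, 2 libraries were Maf+/+ (wt 1 and wt 2) and 2 were Maf flox/flox (flox 1 and flox 2). The Cre recombinase is expressed from Foxp3, the gene of the lineage-defining factor of regulatory T cells, so the labelled Maf+/+ cells express it too. Whether the libraries of a group were made from different animals is not stated in the labels, and the p-values cover the spread among these 4 libraries alone, which may be technical.

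Maf, the gene of the transcription factor that the floxed allele targets, had 3071 counts in the library labelled wt 1, 2975 in the library labelled flox 1, 40 in wt 2 and 15 in flox 2. Thus Maf was high in both libraries numbered 1 and low in both numbered 2, which goes against the labels of flox 1 and wt 2. No library was given another genotype. The libraries numbered 1 are compared below with those numbered 2, and the labelled genotypes separately. Whatever else the libraries with the same number share cannot be told apart from the Maf level. The Maf difference was 6.65 on the log2 scale (95% interval 5.70 to 7.60, edgeR's quasi-likelihood test, Benjamini-Hochberg adjusted p = 0.00480; without the library labelled wt 1 the adjusted p was 0.0509). Total counts on genes ran from 19368745 to 24687897. Foxp3 was present at 93.8, 91.0, 104 and 104 CPM (the count divided by the scaled library total, on a common scale) in wt 1, flox 1, wt 2 and flox 2, the order in which values are given throughout.

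The respiratory chain sits in the inner mitochondrial membrane. Complex I takes electrons from NADH and complex II from succinate, complex III passes them from ubiquinol to cytochrome c, and complex IV hands them to oxygen. Complexes I, III and IV pump protons, and ATP synthase, or complex V, uses the resulting gradient to make ATP. Most subunits are made from nuclear genes and imported. A core set is made from mitochondrial DNA. The raw counts held no row under the mt- symbols of 13 such genes, so those genes were not analysed here. Regulatory T cells are known to rely on oxidative metabolism more than conventional effector T cells do.

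No difference between the libraries numbered 1 and those numbered 2 passed for any member in edgeR's quasi-likelihood test with Benjamini-Hochberg adjustment over all genes: 0 of 83 passed at 0.05, where 1.81% of all genes tested did, 1.41% as higher and 0.399% as lower in the libraries numbered 1. At an unadjusted p under 0.05 there were 8 members, all with a lower level in the libraries numbered 1, where 5.45% of all genes had such a p in that direction and 13.6% in either. With DESeq2, 0 members passed after adjustment and 1 had an unadjusted p under 0.05. The smallest adjusted p among members was 0.195, for Cox7b. Fitted differences were small, from -0.53 (Ndufaf2) to 0.16 (Uqcrc1) on the log2 scale, and 82 of 83 lay within 0.5 of 0. The median standard error was 0.12. The 95% interval included 0 for 75 members, and over all members the interval bounds ran from -1.29 to 0.54, so differences within a member's own interval were not detectable with 4 libraries.

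Small as they were, the differences leaned to one side. The log2 fold change was below 0 for 67 members and above 0 for 16, with a median of -0.13, where 51.3% of all genes tested were below 0 and their median was -0.01. Both libraries numbered 1 lay below both numbered 2 for 38 members, against 22.7% of all genes, and above them for 7, against 22.5%. Members share regulation and libraries, so these counts are a description of the 83 genes and carry no test.

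The members' levels were graded over the libraries and showed no clean step between the numbers. The library labelled wt 1 had the lowest CPM for 55 members (66.3%, against 24.6% of all genes) and flox 2 the highest for 48 (57.8%, against 26.1%). The median deviation of members from their own mean over the 4 libraries was -0.14 in wt 1, -0.01 in flox 1, 0.03 in wt 2 and 0.12 in flox 2 on the log2 scale. Flox 1 and wt 2, which differ in both number and label, were close to each other. The members' median log2 fold change between the numbers was -0.08 without wt 1 and -0.09 without flox 2, and it was -0.21 without flox 1 and -0.20 without wt 2. At an unadjusted p under 0.05 there were 0 members without wt 1 (8.17% of all genes), 5 without flox 1 (9.48%), 11 without wt 2 (15.9%) and 0 without flox 2 (16.3%).

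**Figure D1:**
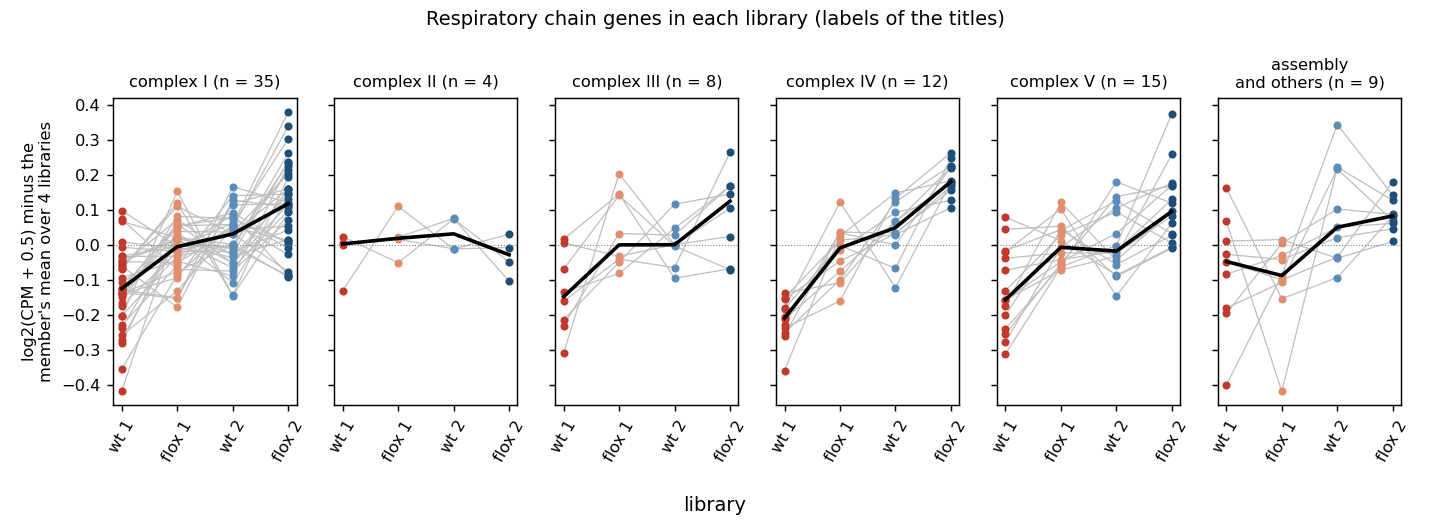
Each line is a member, drawn by complex; the y axis is its log2(CPM + 0.5) in a library minus its mean over the 4 libraries, the x axis is the library by its title, and the black line joins the medians. In complex IV the median goes from -0.21 in wt 1 to 0.18 in flox 2, while complex II goes from -0.03 in flox 2 to 0.03 in wt 2.

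In total the members took 0.653%, 0.691%, 0.716% and 0.716% of all gene counts, or 6716, 6990, 6856 and 7206 CPM after scaling. As shares of gene counts both libraries numbered 1 lay below both numbered 2, while after scaling the summed levels of the numbers overlapped. In bulk RNA, fewer cells of a type and less RNA per cell cannot be told apart. A sum is weighted to its most abundant genes, and complex V alone made up 44.7% of it, complex I 22.4%, complex II 10.9%, complex IV 10.9% and complex III 9.0%.

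Levels of other cells' markers also varied between libraries. Summed epithelial markers were 217, 499, 490 and 352 CPM, B and plasma cell markers 76.2, 152, 92.2 and 76.4 CPM, and myeloid markers 22.2, 108, 72.7 and 59.2 CPM, with Csf1r and Cd14 at 0 counts in wt 1. None of the 12 epithelial, 11 B cell and 11 myeloid markers tested passed between the numbers after adjustment. CD8 T and natural killer markers summed to 57.3, 65.7, 88.1 and 107 CPM, and 1 of 7 tested passed: Klrb1c, a natural killer receptor, at 22.6, 21.3, 44.9 and 68.5 CPM (edgeR, Benjamini-Hochberg adjusted p = 0.0368). Without Klrb1c the list summed to 34.8, 44.4, 43.2 and 38.7 CPM, and 3 of the other 6 tested were above 0. Of 8 regulatory T cell genes 4 were above and 4 below 0, with a median of -0.01. An edgeR unadjusted p under 0.05 as lower in the libraries numbered 1 was found for 2, against 5.45% of all genes. After adjustment 1 of the 8 passed, as higher, against 1.41% of all genes. It was Ctla4, an inhibitory receptor, at 3342, 3344, 1627 and 2080 CPM (adjusted p = 0.0270 in the same edgeR fit). Both calls were lost without wt 1 (adjusted p = 0.257 and 0.198) and without flox 1 (0.225 and 0.153). The part of these markers in the members' levels was not tested.

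Promoters of respiratory chain genes are known for sites of the nuclear respiratory factors, NRF1 and the ETS-family factor GABP. RefSeq promoter windows (build GRCm38.p6, from 250 bases before to 50 bases after a start) were matched by symbol for 68 of the 83 members, 73 windows in all. Both strands were searched. The NRF1 motif GCGCNNGCGC was in 28.8% of the members' windows, 12.5% of those of other genes tested and 6.23% of all 32851 windows. The ETS motif CCGGAAG was in 23.3% of members' windows, 16.9% of those of other genes tested and 8.86% of all. The YY1 motif AAGATGGC was in 12.3%, 4.20% and 2.75%. For MAF, the core TGCTGA was in 8.22% of the members' windows, 15.8% of those of other genes tested and 19.5% of all. The full palindrome TGCTGANTCAGCA was in 0 of the 73, in 0 of 12405 windows of other genes tested and in 0.00609% of all. A motif this rare cannot set the members apart. The AP-1 motif TGANTCA, which the palindrome contains, was in 9.59%, 5.26% and 7.81%. These are matches of letters and not measured sites.

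The 180 bases before the start are shown for 4 members. Sdha is the most abundant of complex II and has the most NRF1 matches of the 4. Cox6a1 has both the NRF1 and the ETS motif and the smallest p by label. Atp5k has 1 NRF1 match in these bases. Cox7b, the member with the smallest p by number, has no NRF1 or ETS match in them. In the full windows, the MAF core was present for Cox7b and Atp5k, and the ETS motif for Atp5k. Capitals mark the NRF1 motif GCGCNNGCGC and the ETS motif CCGGAAG or its reverse complement CTTCCGG. Each is written 5′ to 3′ on the strand of its gene, from RefSeq, build GRCm38.p6. The windows are chr13:74350241-74350420 on the minus strand (Sdha), chr5:115348959-115349138 on the minus strand (Cox6a1), chr5:108434400-108434579 on the minus strand (Atp5k) and chrX:106015520-106015699 on the plus strand (Cox7b).
Sdha: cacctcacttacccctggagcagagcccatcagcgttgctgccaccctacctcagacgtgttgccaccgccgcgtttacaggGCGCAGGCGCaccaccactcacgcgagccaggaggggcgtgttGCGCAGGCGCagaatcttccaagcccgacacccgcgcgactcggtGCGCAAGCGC
Cox6a1: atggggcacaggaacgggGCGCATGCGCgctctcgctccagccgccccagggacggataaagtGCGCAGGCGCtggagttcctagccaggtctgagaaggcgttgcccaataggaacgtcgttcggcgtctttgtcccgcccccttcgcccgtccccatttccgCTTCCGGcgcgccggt
Atp5k: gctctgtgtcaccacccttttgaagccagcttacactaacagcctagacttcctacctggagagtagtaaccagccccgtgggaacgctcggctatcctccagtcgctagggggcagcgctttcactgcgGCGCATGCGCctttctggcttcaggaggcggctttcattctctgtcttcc
Cox7b: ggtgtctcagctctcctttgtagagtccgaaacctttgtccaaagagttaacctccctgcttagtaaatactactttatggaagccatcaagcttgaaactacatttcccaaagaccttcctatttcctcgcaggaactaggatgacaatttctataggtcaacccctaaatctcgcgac

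Complex I was the largest group, with 35 members. Its summed level was 1471, 1539, 1570 and 1643 CPM, 0.937 times as high in the libraries numbered 1 as in those numbered 2, with 0 members past the adjusted threshold. The log2 fold change was below 0 for 29, with a median of -0.10. This median was -0.07 without wt 1, -0.18 without flox 1, -0.20 without wt 2 and -0.08 without flox 2. With the offset for transcript length described below it was -0.04, with 22 below 0. The 7 core subunits, which hold the flavin and iron-sulfur centres that carry electrons, had a median of 0.00, while the 28 accessory subunits, which surround the core and support its assembly and stability, had a median of -0.17 and 25 below 0. Core subunits summed to 597, 596, 594 and 594 CPM, nearly level across the libraries. Accessory subunits summed to 874, 943, 976 and 1049 CPM, with both libraries numbered 1 below both numbered 2. The median transcript length was 1312 bases for the core and 718 for the accessory subunits. The part of length in this contrast was not tested.

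Among the accessory subunits, Ndufa9, a subunit near the ubiquinone site, had 78.3, 80.8, 93.4 and 93.7 CPM. The pairs did not overlap, and the log2 fold change was -0.23 (standard error 0.09, edgeR unadjusted p = 0.0337, Benjamini-Hochberg adjusted p = 0.313). Ndufa6, an LYR-motif subunit of the matrix arm, had 25.0, 27.4, 31.1 and 38.2 CPM, with a log2 fold change of -0.40 (95% interval -0.77 to -0.04). Ndufa10 had 77.3, 71.2, 88.1 and 86.9 CPM, the lowest value being in flox 1, with a log2 fold change of -0.24. Ndufa3, a small membrane subunit, had 16.6, 20.2, 22.3 and 28.0 CPM and the largest difference of the complex, -0.45. Of the core, Ndufs1, the largest subunit, had 134, 125, 125 and 118 CPM, with both libraries numbered 1 above both numbered 2, by a narrow margin between flox 1 and wt 2 (0.09). Ndufb8, whose protein is widely used to gauge assembled complex I, had 44.0, 50.2, 41.7 and 49.3 CPM, with both libraries labelled flox above both labelled wt.

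Ndufs5 had 0 counts in every library. A gene with a near-identical coding sequence, BC002163, has its own row with 238 counts over the 4 libraries, so reads of the pair may have been split or dropped in counting. A near-identical copy (at least 95% identity over at least 50% of the shortest coding transcript) was found for 12 of the 91 matched genes with a gene model, among them Ndufa12, Ndufb11 and Ndufs3 of complex I, Uqcrb of complex III, Cox7c of complex IV, and Atp5c1, Atp5g1, Atp5g2, Atp5h, Atp5l and Atp5o of complex V. Their counts are uncertain. Exon bases were shared with another gene by 25, Ndufa9, Cox5a and Ndufa3 included, and whether strand was used in counting is not given in the sources used here.

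Complex II, succinate dehydrogenase, had the median closest to 0. Its summed level was 758, 751, 785 and 738 CPM, a ratio of 0.990, and its 4 members had a median log2 fold change of 0.00, which was -0.05 without scaling beyond gene totals. Sdha, the flavoprotein that oxidises succinate, had 483, 459, 501 and 460 CPM, with both libraries labelled flox below both labelled wt. Sdhb, the iron-sulfur subunit, had 119, 120, 118 and 118 CPM, with a log2 fold change of 0.02 with a 95% interval of -0.18 to 0.21. Sdhc and Sdhd are the membrane anchors that bind ubiquinone. Sdhc had 72.3, 73.2, 76.0 and 67.1 CPM (0.02), and Sdhd had 83.6, 98.9, 90.9 and 93.6 CPM (-0.01). For Sdha, Sdhc and Sdhd the libraries numbered 1 and 2 overlapped. Complex II is the only one of the 5 with no subunit made from mitochondrial DNA.

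Complex III, the cytochrome bc1 complex, had 8 members with sums of 600, 658, 610 and 630 CPM, a ratio of 1.01, while the median log2 fold change of its members was -0.14. The sum and the median differed in sign: both core proteins lay above 0 and the 5 accessory subunits below. Median transcript lengths were 1774.5 bases for the core proteins and 474.5 for the accessory subunits, and the part of length was not tested. Without flox 1 the log2 ratio of the sums was -0.048, and without wt 2 it was -0.0026. The median was -0.06 without wt 1, -0.26 without flox 1, -0.03 without flox 2 and -0.04 with the length offset. Uqcrc1, a core protein that faces the matrix, had 237, 260, 220 and 224 CPM, with both libraries numbered 1 above both numbered 2 and a log2 fold change of 0.16 (standard error 0.09, edgeR unadjusted p = 0.0985). This was the highest fold change of all members. Uqcrc2, its partner, had 133, 154, 139 and 133 CPM and overlapped. The 5 accessory subunits had a median of -0.21. Among them Uqcrh, the hinge protein, had 42.3, 43.9, 48.1 and 52.3 CPM (-0.22) and Uqcr10 had 22.4, 25.1, 28.2 and 28.8 CPM (-0.26), both without overlap. Uqcrfs1, the Rieske iron-sulfur protein, had 86.1, 83.9, 85.8 and 87.2 CPM.

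Complex IV, cytochrome c oxidase, leaned most. Its summed level was 656, 748, 769 and 854 CPM, 0.866 times as high in the libraries numbered 1. All 12 members had a log2 fold change below 0, with a median of -0.22. For 8 both libraries numbered 1 lay below both numbered 2, against 22.7% of all genes. None of the 12 passed after adjustment. The difference in summed level was -0.21 on the log2 scale, where the spread within a number was 0.12 (SD, pooled over both numbers). It was -0.12 without wt 1 and -0.13 without flox 2, and the members' median was -0.13 without wt 1, with 11 of the 12 below 0 in either case. With the length offset the median was -0.12 and 11 of the 12 were below 0. With it 1 rather than 3 had an unadjusted p under 0.05, against 12.1% rather than 13.6% of all genes. Cox7b, a small subunit, had 35.6, 37.6, 46.2 and 50.6 CPM. Its pairs did not overlap, and its log2 fold change of -0.40 (standard error 0.12, 95% interval -0.68 to -0.12) had the smallest p among the members (edgeR unadjusted p = 0.0120, Benjamini-Hochberg adjusted p = 0.195). The gene lies at chrX:106015700-106022450 in mm10 on the plus strand. Cox5a, a subunit on the matrix side, had 62.3, 68.5, 75.5 and 84.3 CPM, with a log2 fold change of -0.29. Cox7a2l, also called SCAF1, is known as a factor that joins complexes III and IV into supercomplexes. It had 66.8, 68.2, 77.2 and 83.1 CPM, with a log2 fold change of -0.25, and did not overlap. Which form of its protein these mice carry, and whether that form joins the complexes, was not examined.

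Several complex IV subunits exist as isoforms of different tissues, and here the general forms were counted. Cox4i1 had 127, 143, 144 and 152 CPM, where Cox4i2, the form of lung and smooth muscle, had 7 counts over the 4 libraries. Cox6a1 had 80.1, 98.9, 83.5 and 103 CPM, where the heart and muscle form Cox6a2 had 25 counts. Cox7a2 had 28.1, 33.9, 33.8 and 36.9 CPM, where the muscle form Cox7a1 had 29 counts. Cox6b1 had 54.7, 58.9, 62.2 and 68.4 CPM, where the testis form Cox6b2 had 11 counts. Cox8a had 57.3, 70.3, 68.7 and 80.2 CPM, where Cox8b and Cox8c had 0 counts, and Cox7b2 had 1. Ndufa4, first assigned to complex I and now to complex IV, had 51.2, 58.1, 55.5 and 69.3 CPM, where its relative Ndufa4l2 had 2 counts. Muscle and heart markers summed to at most 2.01 CPM in a library, with Myl1 at 0 in all.

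ATP synthase had 15 members with sums of 3092, 3156, 2971 and 3186 CPM, a ratio of 1.01, while the median log2 fold change was -0.12 and 11 were below 0. The sum was below that of the libraries numbered 2 without wt 2 (log2 ratio -0.029), and the median was -0.05 without wt 1 and -0.20 without flox 1. Atp5b, the catalytic beta subunit of the F1 head, had 1140, 1147, 1038 and 1098 CPM, with both libraries numbered 1 above both numbered 2 and a log2 fold change of 0.10 (95% interval -0.07 to 0.27). Atp5a1, the alpha subunit, had 855, 816, 762 and 805 CPM (0.09), also without overlap. Atp5e, the small epsilon subunit of the central stalk, had 20.4, 24.3, 25.4 and 33.1 CPM (-0.39). The 4 genes of the peripheral stalk, which holds the head still against the rotor, had a median of -0.13. Atp5j, one of them, had 88.6, 95.6, 101 and 111 CPM (-0.21) without overlap.

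The c ring, the rotor that protons turn, is built from a protein whose mature form is the same from 3 genes. Atp5g1 had 45.4, 50.8, 53.2 and 49.96 CPM, Atp5g2 had 45.5, 53.9, 57.2 and 53.5 CPM, and Atp5g3 had 118, 145, 129 and 142 CPM. In each of the 3 the lowest library was wt 1, and the numbered pairs overlapped. The 3 accessory membrane subunits Atp5j2, Atp5k and Atp5l, known from the dimers that shape the cristae, had log2 fold changes of -0.31, -0.31 and -0.28. For all 3 both libraries numbered 1 lay below both numbered 2, against 22.7% of all genes. Their median coding transcripts were short, at 747.5, 321.5 and 544 bases, and the part of length was not tested. Atp5j2 had 32.7, 37.7, 43.1 and 44.1 CPM (edgeR unadjusted p = 0.0459, Benjamini-Hochberg adjusted p = 0.355), and Atp5k had 8.41, 9.59, 11.4 and 10.9 CPM.

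**Figure D2:**
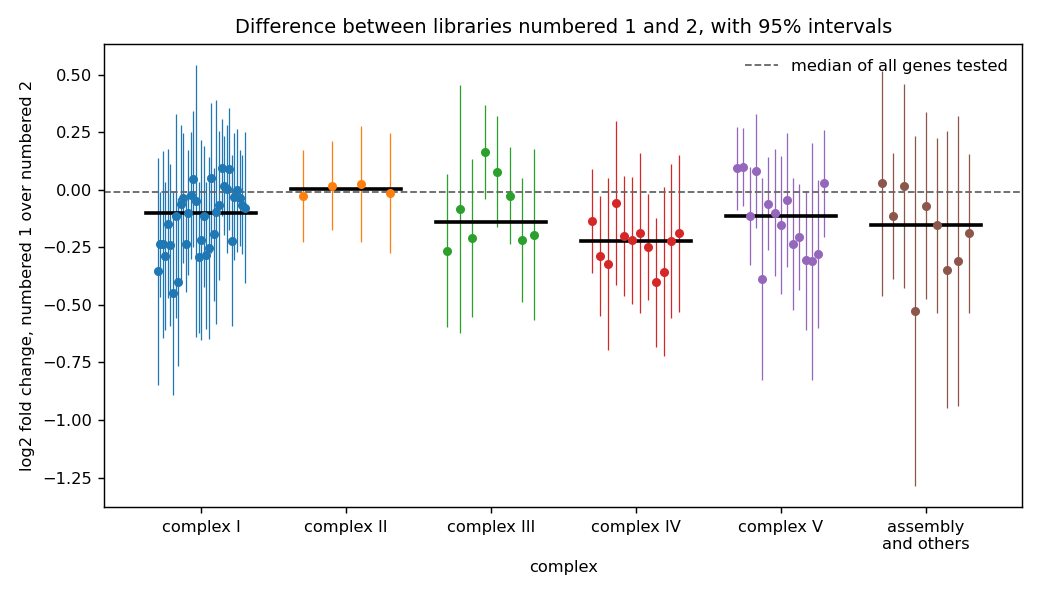
Points are the fitted log2 fold changes of the 83 members (y axis, libraries numbered 1 over numbered 2), grouped by complex on the x axis, with 95% intervals; black bars are medians and the dashed line is the median of all genes tested. Complex IV lies wholly below 0 with a median of -0.22 and complex II is centred at 0.00.

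The remaining 9 members are not subunits of the finished complexes. Of these, 7 are the complex I assembly factors Ndufaf1 to Ndufaf7, and the others, Atp5s and Atp5sl, carry ATP synthase symbols without being subunits. Their summed level was 139, 137, 151 and 155 CPM, a ratio of 0.906 and a difference of -0.14 on the log2 scale. The spread within a number was 0.02 (SD, pooled over both numbers), but an SD from 2 libraries of each number is itself uncertain. In the edgeR fits of the 9 genes the median standard error was 0.18, and 0 had an unadjusted p under 0.05, against 13.6% of all genes. Both libraries numbered 1 lay below both numbered 2 for 7 of the 9, against 22.7% of all genes. The median log2 fold change was -0.15, or -0.10 without flox 2. With the length offset it lay further from 0, at -0.20. Ndufaf2, a chaperone of late complex I assembly, had 3.70, 4.71, 6.53 and 5.61 CPM, and its log2 fold change of -0.53 had a 95% interval of -1.29 to 0.23. Ndufaf5 had 10.7, 7.5, 12 and 11.2 CPM (-0.35), Ndufaf7 had 21.3, 24.5, 26.3 and 26.0 CPM (-0.19), and Ndufaf4 had 18.7, 18, 18.8 and 22 CPM (-0.15). Ndufaf1 had 19.4, 15.5, 16.2 and 18.3 CPM and overlapped.

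Levels of different genes can be compared only per length. Per kb of merged exons, Atp5b was the most abundant member at a mean of 577 CPM per kb over the 4 libraries, and the highest in complexes II, III and IV were Sdha at 164, Uqcrc1 at 142 and Cox4i1 at 185 CPM per kb. The lowest were Atp5g1 at 10.1, Cox7c at 17.5, Sdhc at 22.8, Uqcrq at 14.3 and Ndufb2 at 2.44 CPM per kb. Merged exons were 4912 bases for Atp5g1, 3171 for Sdhc and 4375 for Ndufb2, among the longest of their complexes. Their low places thus depend on the annotated length, and which transcripts these cells use was not examined. Counts of Atp5g1 and Cox7c are also uncertain, as each has a near-identical copy. Assembly factors were lower as a group, from 5.33 (Ndufaf4) to 11.7 (Ndufaf1) CPM per kb. Neighbours in this order were often inside each other's spread: Uqcrb had 83.9, 91.3, 89.7 and 113 CPM per kb and Uqcrh had 77.3, 80.3, 87.9 and 95.6. With the median length of coding transcripts in place of merged exons, Uqcr11 became the lowest of complex III, and the other highest and lowest members named here kept their place.

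**Figure D3:**
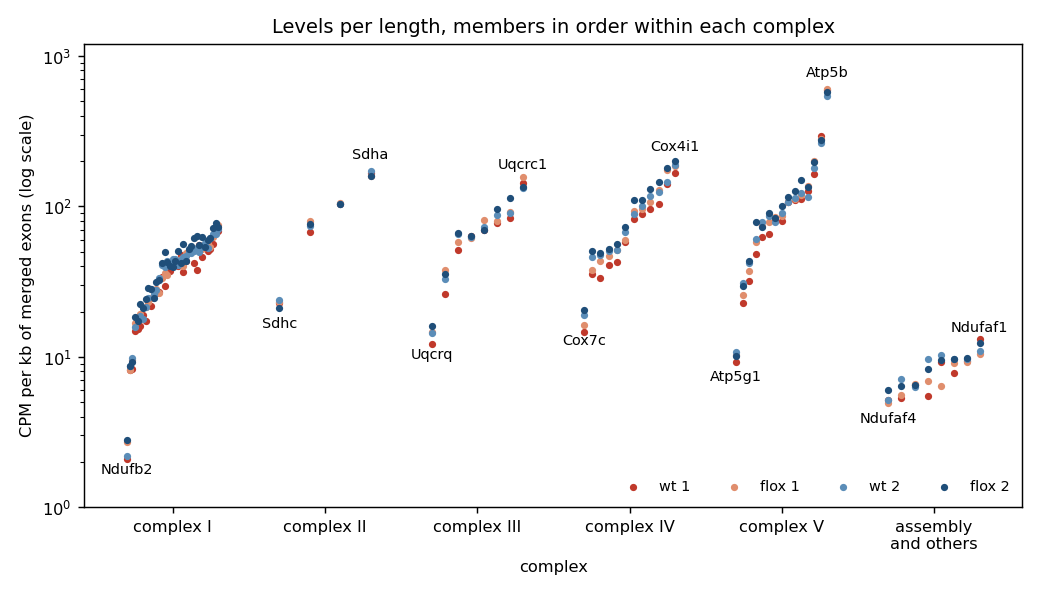
CPM per kb of merged exons (y axis, log scale) for the 82 members with a length, in order within each complex along the x axis, with a point for each library. Atp5b at 577 CPM per kb is the highest of all and Ndufb2 at 2.44 the lowest; the 4 libraries of a member lie close together beside the range within a complex.

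Members with the shortest transcripts lay furthest below 0. Respiratory chain transcripts are short: 49 of 82 members with a length had a median coding transcript under 1000 bases, and 0 had one of 4000 bases or more. The 49 short members had a median log2 fold change between the numbers of -0.21, with 46 below 0. The 24 members of 1000 to under 2000 bases had a median of -0.02, with 13 below 0, and the 9 of 2000 to under 4000 bases had -0.10, with 7 below 0. The other genes of these classes had medians of -0.11 under 1000 bases (1059 genes, 65.9% below 0), -0.03 (3108 genes, 55.0%), 0.00 (5218 genes, 49.7%) and 0.04 at 4000 bases or more (2939 genes, 43.2%). Across the 82 members Spearman's rho between length and log2 fold change was 0.58, and across 12406 genes tested it was 0.13. Genes of a library share its preparation and are not independent replicates, so these are descriptions.

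The length classes also separated the libraries. Genes with transcripts under 1000 bases, members included, had a median deviation of -0.09 in wt 1, -0.01 in flox 1, 0.04 in wt 2 and 0.06 in flox 2 on the log2 scale. Those of 4000 bases or more had 0.05, 0.00, -0.03 and -0.01. When a smooth curve of each library's deviation on transcript length was added to the edgeR offset, the members' median log2 fold change went from -0.13 to -0.08, 56 rather than 67 were below 0, and 1 rather than 8 had an unadjusted p under 0.05. Over all genes tested the share with such a p went from 13.6% to 12.1%. The length classes and this fit were chosen after seeing the data.

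**Figure D4:**
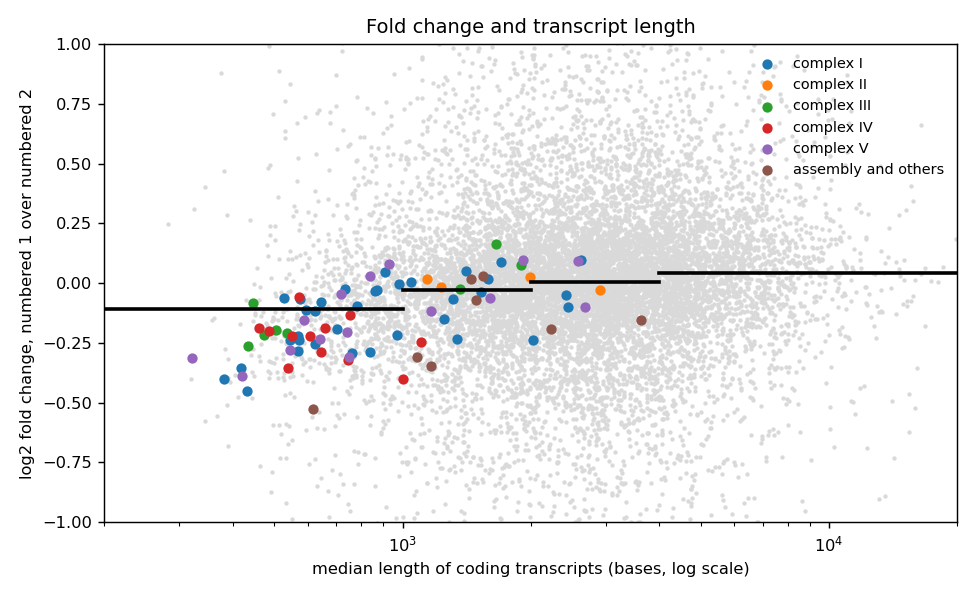
Log2 fold change between libraries numbered 1 and 2 (y axis) against the median length of coding transcripts (x axis, log scale), with members coloured by complex and all other genes tested in grey; black bars are medians of the other genes in 4 length classes, and genes beyond the axes are not drawn. Members under 1000 bases lie mostly below 0 (46 of 49), and the medians of the other genes go from -0.11 in the shortest class to 0.04 in the longest.

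The comparison that the labels state, flox against wt, uses the same 4 libraries and is given beside the one above. No member passed after adjustment, where 0.00768% of all genes (1 gene) did. At an unadjusted p under 0.05 there was 1 member, where 1.98% of all genes had such a p, and with DESeq2 0 members passed after adjustment. Cox6a1, a complex IV subunit, had 80.1 and 83.5 CPM in wt 1 and wt 2 and 98.9 and 103 CPM in flox 1 and flox 2. Its log2 fold change of flox over wt was 0.30 (standard error 0.10, edgeR unadjusted p = 0.0286, Benjamini-Hochberg adjusted p = 1.00), and its difference by number was -0.06. The members' log2 fold change was above 0 for 70 of 83, with a median of 0.09, where 50.3% of all genes were above 0 and their median was 0.00. By length class the members' median was 0.15 under 1000 bases, 0.03 at 1000 to under 2000 and 0.004 at 2000 to under 4000. The other genes had a median of 0.06 under 1000 bases and -0.01 at 4000 bases or more. The part of length in this lean was not tested. Both libraries labelled flox lay above both labelled wt for 23 members, against 13.2% of all genes, and below for 2, Sdha and Ndufs8, against 13.8%. Since wt 1 was lowest and flox 2 highest for most members, each comparison puts 1 of these libraries on each side. Spread was wider by label: the biological coefficient of variation was 0.273, against 0.194 by number.

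Other mitochondrial genes were described from lists outside the symbol rule, and none of their members passed between the numbers in edgeR's test after adjustment. DESeq2 called 1 of the regulators of biogenesis (Myc), 1 of the stress genes (Gpx1) and 2 of the heat shock and immediate early genes. Without a filter edgeR called 1 in each of these 3 lists and 1 assembly factor. Both settings also called more of all genes than the main fit did, as given in the last section. The 16 heat shock and immediate early genes had a median of -0.13, which was -0.39 without wt 2 and 0.33 without flox 2. The median of the 17 stress genes was 0.02 without wt 2. Of 10 electron carriers and subunits with other symbols, 6 were below 0, with a median of -0.03 and 0 at an unadjusted p under 0.05. Cyc1, the cytochrome c1 of complex III, had 138, 136, 127 and 128 CPM (0.10), and Cycs, cytochrome c, had 124, 140, 118 and 154 CPM. Of 34 assembly factors of other names the median was -0.06, or 0.02 without wt 2 and -0.11 without flox 2. An unadjusted p under 0.05 was found for 2 of them, where 13.6% of all genes had one. Surf1, a complex IV assembly factor, had 33.0, 29.0, 46.8 and 42.7 CPM, with a log2 fold change of -0.53 (edgeR unadjusted p = 0.00537, Benjamini-Hochberg adjusted p = 0.131). Acad9, which acts in complex I assembly, had 94.4, 88.2, 65.1 and 76.8 CPM, with a log2 fold change of 0.36.

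The 77 mitochondrial ribosomal protein genes had a median of -0.08 (-0.05 without wt 2 and -0.04 with the length offset). Of these, 56 were below 0, against 51.3% of all genes. For 28 both libraries numbered 1 lay below both numbered 2, against 22.7% of all genes. An unadjusted p under 0.05 was found for 3, against 13.6% of all genes. Mrps14 had 52.7, 50.4, 65.0 and 66.2 CPM (-0.35) and Mrpl15 had 40.2, 40.8, 52.8 and 48.7 CPM (-0.33). Of 22 genes of the tricarboxylic acid cycle, 12 were above 0, with a median of 0.02. Without scaling beyond gene totals that median was -0.04. Idh3a, a subunit of isocitrate dehydrogenase, had 109, 117, 132 and 133 CPM (-0.23). The 29 genes of import and inner membrane shape had a median of -0.02, with the import receptor Tomm20 at 102, 106, 75.3 and 93.2 CPM (0.31). The 17 mitochondrial stress and antioxidant genes had a median of -0.03, with Gpx1, a glutathione peroxidase, at 150, 174, 120 and 124 CPM (0.41).

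Of 18 tested regulators of mitochondrial biogenesis, 9 were above and 9 below 0. Myc, a growth regulator that acts on many mitochondrial genes, had 475, 388, 287 and 297 CPM, with a log2 fold change of 0.56 (edgeR unadjusted p = 0.00192, Benjamini-Hochberg adjusted p = 0.0780), with both libraries numbered 1 above both numbered 2. Gabpb1, a subunit of the ETS-family factor GABP, had 199, 222, 174 and 184 CPM (0.24). Nrf1 had 93.2, 82.1, 81.6 and 88.4 CPM (0.04) and overlapped. Heat shock and immediate early genes, known to respond to stress, summed to 16690, 16915, 12374 and 22380 CPM, highest in flox 2 and lowest in wt 2. Their part in the members' levels was not tested.

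The authors' normalized values held all 83 members among 10618 rows. In those values 67 members were lower in the libraries numbered 1, with a median log2 ratio of -0.14, where the median of all rows was -0.01. These values are adjusted counts of the same libraries and not independent evidence.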

How the data were processed

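RNA sequencing of 4 libraries was analysed from tables the authors deposited. The build was mm10 and the tools included the aligner TopHat2 2.1.1, the counter HTSeq 0.6.1 and edgeR 3.14, per the submitters' processing notes. Their settings, the annotation and the strand setting were not given in the sources used here. Per the labels' protocols, an ultra-low input mRNA kit was used. The authors deposited raw counts per gene symbol. The 5 summary rows held 66.6% to 67.2% of a column and were left out. The authors also deposited normalized values, a signal that is not whole. Classic edgeR pseudo-counts recomputed with the libraries grouped by number matched 99.97% of 42472 values within a relative 1e-04, against 63.2% when grouped by label and 63.3% in the remaining pairing. These values were only described.

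edgeR 4.0.16 in R 4.3.3 (filterByExpr, TMM, glmQLFit robust, glmQLFTest) tested the counts of 13022 genes, adjusted over all of them by Benjamini-Hochberg at a threshold of 0.05. CPM use TMM library sizes. The test was tried on simulated data first. The smallest two-sided p of an exact permutation test of 2 libraries against 2 is 0.333, and no such test was made. Alternatives were DESeq2 1.42.0, limma 3.58.1 (voom), other scalings and filters, blocks, and leaving out each library. Lengths came from the mm10 gene models, and a loess curve of span 0.5 gave the length offset.

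The members and lists were chosen with earlier results of these data known. Named were Maf, the Sdh genes, the 3 members of smallest p in each complex, the highest and lowest member of each complex per length, tissue isoforms, the 2 genes of smallest p in each other list, and the 3 members of smallest p by label. Ndufa3, Ndufs1, Ndufs8, Uqcrc2, Uqcrfs1, Uqcr11, Atp5a1, Atp5k, Atp5l, Cycs, Nrf1 and the markers were named after their values were seen. Some of what the rule names is not reported here.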

Additional observations from a re-analysis of the deposited data

How the results depend on the processing

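No member passed after adjustment under any of the 12 alternatives to the comparison by number or by label, and the members' median log2 fold change by number stayed below 0 in all of them. All genes called by number were 236, against 635 with DESeq2, 589 without a filter and 38 to 494 when a library was left out (38 without wt 1, 69 without flox 1, 494 without wt 2 and 439 without flox 2). By label 1 gene was called, against 12 with DESeq2, 2 without a filter, 0 with limma-voom, 0 with at least 10 counts in every library and 0 when any library was left out. With the number as a replicate block, 1 gene and 0 members were called by label, with a members' median of 0.09. The labels give no shared litter, batch or day for libraries of like number.

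Of the log2 ratios of summed CPM, those on gene totals without TMM that moved by more than the spread within a number were -0.15 for complex I, -0.070 for complex II, -0.033 for complex V and -0.20 for assembly factors and others. The mean log2 level over members gave -0.096 for complex III, -0.13 for complex V and -0.18 for assembly factors and others. Complex III without Uqcrc1 gave -0.066, and complex II ranged from -0.058 to 0.031 when a library was left out. The cause was not tested.

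Of 720 values of named genes, 672 kept direction and side of the threshold and 36 changed sign. Without scaling beyond gene totals Sdhb was -0.037, Sdhc -0.032, Ndufaf1 -0.039, Ndufb8 -0.0011 and Nrf1 -0.011, and Ndufaf1 was -0.0038 with limma-voom. Ndufs8 was 0.00017 with DESeq2 and 0.00017 with RLE scaling. With the length offset Sdhd was 0.011, Cox6a1 0.047, Atp5g3 0.039, Ndufs8 0.055 and Uqcr11 0.026. When a library was left out, Atp5g3 ranged from -0.20 to 0.094, Cox6a1 from -0.22 to 0.11, Cycs from -0.23 to 0.16, Ndufaf1 from -0.16 to 0.17, Ndufb2 from -0.25 to 0.14, Ndufb8 from -0.062 to 0.18, Ndufs8 from -0.081 to 0.087, Nrf1 from -0.051 to 0.13, Sdha from -0.082 to 0.038, Sdhc from -0.057 to 0.12, Sdhd from -0.14 to 0.10, Uqcr11 from -0.38 to 0.16 and Uqcrc2 from -0.033 to 0.18. The cause was not tested.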
